A study of Mus musculus with 9 samples.

Results

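Nefl, Nefm, Nefh and Ina encode the neurofilament subunits of mature neurons, and Mapt encodes tau. These 5 genes were taken by name as the neurofilament and tau genes. The rule used no measured value, but earlier results of these data were known when the genes were chosen. All 5 were among the 37620 gene identifiers counted in every sample, and all 5 were among the 15069 genes kept for testing. The RNA was ribosome-associated RNA of parvalbumin interneurons (PV INs) of hippocampal CA2/CA3, in which the ribosomal protein Rpl22 carried an HA tag that Cre had switched on from the PV locus.

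Both groups were 2-month-old male and female PV-Cre mice carrying the floxed Rpl22-HA allele, and both received a lentivirus in the dentate gyrus (DG) 2 weeks before tissue was taken. The virus expressed a non-target shRNA in the 5 shNT samples and an shRNA against Ablim3 in the 4 shRNA samples. Ablim3 encodes an actin-binding protein of the mossy fiber terminals by which DG granule cells contact CA3 neurons and PV INs. The injection was made into the DG and not into the CA2/CA3 tissue that was sequenced. Each sample was a pool of 6 mice, and the spread between samples is the spread between pools.

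Neurofilaments are the intermediate filaments of axons. The light chain, from Nefl, forms the core of the filament, and the medium and heavy chains, from Nefm and Nefh, and α-internexin, from Ina, assemble with it. Nefm and Nefh carry long tails that project from the filament and are phosphorylated at repeated lysine-serine-proline motifs. Neurofilament content is known for setting the caliber of axons. Tau binds along axonal microtubules, is detached from them by phosphorylation, and is known for its aggregates in neurodegenerative disease. PV INs are fast-spiking cells with densely branched and often myelinated axons.

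A pair of sequences is shown because each limits how reads of these genes could be counted. Nefl and Nefm are neighbors on chromosome 14 of the mm9 build, on opposite strands, with start sites 40983 bases apart. In the GENCODE annotation of that build, Nefl (ENSMUSG00000022055) spans 68701920 to 68707152 on the plus strand and Nefm (ENSMUSG00000022054) spans 68700647 to 68742903 on the minus strand. The last exon of 1 of the 2 annotated Nefm transcripts lies over 1108 bases of the first exon of Nefl, which are 32.8% of the exonic bases of Nefl and 19.2% of those of Nefm. The end of that stretch is given below on the plus strand, with the 144 coding bases of Nefl that the annotation also assigns to Nefm in capitals and the 39 bases that belong to Nefl alone in lower case (chr14:68702884-68703066).
Nefl exon 1, end: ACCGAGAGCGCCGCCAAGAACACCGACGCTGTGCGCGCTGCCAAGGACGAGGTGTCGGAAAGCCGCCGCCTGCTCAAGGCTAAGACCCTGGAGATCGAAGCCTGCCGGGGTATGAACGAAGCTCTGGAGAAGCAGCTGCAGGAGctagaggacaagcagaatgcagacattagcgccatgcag

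Reads were counted without regard to strand, so with this annotation a read in the capitals belongs to neither gene. The annotation used for the deposited counts is not given in the sources used here, and whether these reads were counted on Nefl could not be told. Reads set aside as ambiguous between genes made up 1.66% to 1.78% of uniquely aligned reads in shNT samples and 1.36% to 1.60% in shRNA samples.

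Nefh (ENSMUSG00000020396, chromosome 11, 4838757 to 4848067, minus strand) holds a repeat instead. The stretch below is coding sequence of its tail, on the minus strand (chr11:4840754-4840874), with each copy of AAATCTCCA, which reads lysine-serine-proline in frame, in capitals.
Nefh repeat: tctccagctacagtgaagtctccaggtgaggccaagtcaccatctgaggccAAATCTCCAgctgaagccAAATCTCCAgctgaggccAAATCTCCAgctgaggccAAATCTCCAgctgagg

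The motif was searched on the coding strand of coding sequences. It occurred 14 times in Nefh, each time in frame, and not in these letters in Nefl, Nefm, Ina or Mapt. It occurred in 1.14% of 22594 genes (257 genes), with at most 3 copies in any gene other than Nefh. Because of the repeat, 96.1% of the 50-base windows in Nefh exons were found at a single place in the mm9 genome, and 50-base reads from the rest could be lost as alignments at more than 1 place. Ina (ENSMUSG00000034336, chromosome 19, 47089188 to 47099817, plus strand) shares 456 exonic bases, 14.1% of its exons, with Nt5c2 on the other strand. Mapt (ENSMUSG00000018411, chromosome 11, 104092704 to 104193404, plus strand) has 14 annotated transcripts and shares no exonic base with another gene. The counts are per gene, so they do not separate the tau isoforms.

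Counts on genes ran from 18281719 to 34578837 per sample, and at the levels of these 5 genes the samples differed by far more than counting alone would give. A pair of samples stood apart. Reads outside annotated exons made up 9.76% to 11.3% of uniquely aligned reads in 4 shNT samples and 18.6% in shNT replicate 2, and 12.4% to 19.8% in 3 shRNA samples and 27.2% in shRNA replicate 4. Pvalb, the defining gene of these cells, was present in every sample, at 998 ± 287 CPM, the count scaled to the size of the library (SD, n = 5), in shNT and 526 ± 163 CPM (n = 4) in shRNA, with an edgeR adjusted p of 0.0678. Ablim3 was counted at 16.9 ± 5.16 CPM (SD, n = 5) in shNT and 18.5 ± 3.42 CPM (n = 4) in shRNA, which does not check a knockdown made in DG cells. In bulk samples, fewer cells of a type and less RNA per cell cannot be told apart.

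The comparison of shRNA with shNT samples asked whether these 5 genes changed in PV INs after the knockdown in the DG. No change passed the test, edgeR's quasi-likelihood test at an FDR under 0.05 and at least 1.5-fold, in any of them. Called genes made up 1.75% of all genes tested, 262 of them higher (1.74%) and 2 lower (0.0133%). Before adjustment, edgeR gave a p under 0.05 to 0 of the 5, against 13.4% of all genes on the lower side and 20.7% on the higher side. DESeq2 and the edgeR likelihood ratio test also called 0 of the 5, while over all genes DESeq2 called 10.2% higher and 5.53% lower and the likelihood ratio test 11.2% and 3.6%. For every one of the 5 genes the groups overlapped, whereas they did not overlap for 15.6% of all genes, with every shRNA sample below every shNT sample in 6.68% and above in 8.97%.

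Nefl, the core subunit, was counted at 729, 643, 693, 712 and 766 CPM in shNT replicates 1 to 5 and at 718, 849, 855 and 584 CPM in shRNA replicates 1 to 4. In these CPM both the highest samples and the lowest were shRNA samples, with replicates 2 and 3 above every shNT sample and replicate 4 below. In counts over library size alone, replicates 2 and 3 were still above, but replicate 4 was not below every shNT sample. The means were 708 ± 45.5 CPM (SD, n = 5) and 751 ± 128 CPM (n = 4). The log2 fold change was 0.08 (SE 0.16, 95% interval -0.28 to 0.45, edgeR adjusted p = 0.733), which leaves out a change of 1.5-fold in either direction. It was 0.17 without shRNA replicate 4 and -0.06 without shRNA replicate 3, so 1 sample decided its sign.

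Nefm, the medium chain, was at 451, 311, 428, 399 and 414 CPM in shNT replicates 1 to 5 and at 405, 438, 488 and 208 CPM in shRNA replicates 1 to 4. Of the shRNA samples, 3 lay among or above the shNT samples and replicate 4 lay below all of them. The means were 401 ± 53.7 CPM (SD, n = 5) and 385 ± 123 CPM (n = 4). The log2 fold change was -0.06 (SE 0.23, 95% interval -0.57 to 0.46, edgeR adjusted p = 0.876) and turned to 0.14 without shRNA replicate 4.

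Nefh, the heavy chain, showed the widest spread of the 5 within the shNT samples, at 511, 315, 599, 572 and 517 CPM in replicates 1 to 5. In shRNA replicates 1 to 4 it was at 401, 520, 545 and 180 CPM. Replicate 2 was low among the shNT samples, and replicate 4 was again below every other sample. The means were 503 ± 111 CPM (SD, n = 5) and 411 ± 167 CPM (n = 4). The log2 fold change was -0.29 (SE 0.30, 95% interval -0.96 to 0.38, edgeR adjusted p = 0.508). It was -0.05 without shRNA replicate 4, -0.52 without shRNA replicate 3 and -0.42 without shNT replicate 2.

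Ina, which encodes α-internexin, had the lowest log2 fold change of the 5. It was at 518, 414, 553, 577 and 637 CPM in shNT replicates 1 to 5 and at 447, 488, 493 and 169 CPM in shRNA replicates 1 to 4. Every shRNA sample lay below 4 of the 5 shNT samples, and shNT replicate 2 lay below 3 of the 4 shRNA samples. The means were 540 ± 82.4 CPM (SD, n = 5) and 399 ± 155 CPM (n = 4). The log2 fold change was -0.44 (SE 0.29, 95% interval -1.06 to 0.19, edgeR adjusted p = 0.288), and 12.4% of all genes had a lower one. An exact two-sided permutation test of the mean log2 CPM over the 126 ways to split the samples gave p = 0.0952, where 0.00794 is the smallest p it can give. The log2 fold change was -0.20 without shRNA replicate 4 and -0.61 without shRNA replicate 3, and stayed below 0 with each sample left out in turn.

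Mapt, which encodes tau, was at 311, 275, 331, 296 and 372 CPM in shNT replicates 1 to 5 and at 299, 301, 326 and 186 CPM in shRNA replicates 1 to 4. The first 3 shRNA replicates lay within the range of the shNT samples and replicate 4 lay below it. The means were 317 ± 36.8 CPM (SD, n = 5) and 278 ± 62.5 CPM (n = 4). The log2 fold change was -0.19 (SE 0.18, 95% interval -0.59 to 0.22, edgeR adjusted p = 0.476), and it was -0.05 without shRNA replicate 4.

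**Figure D1:**
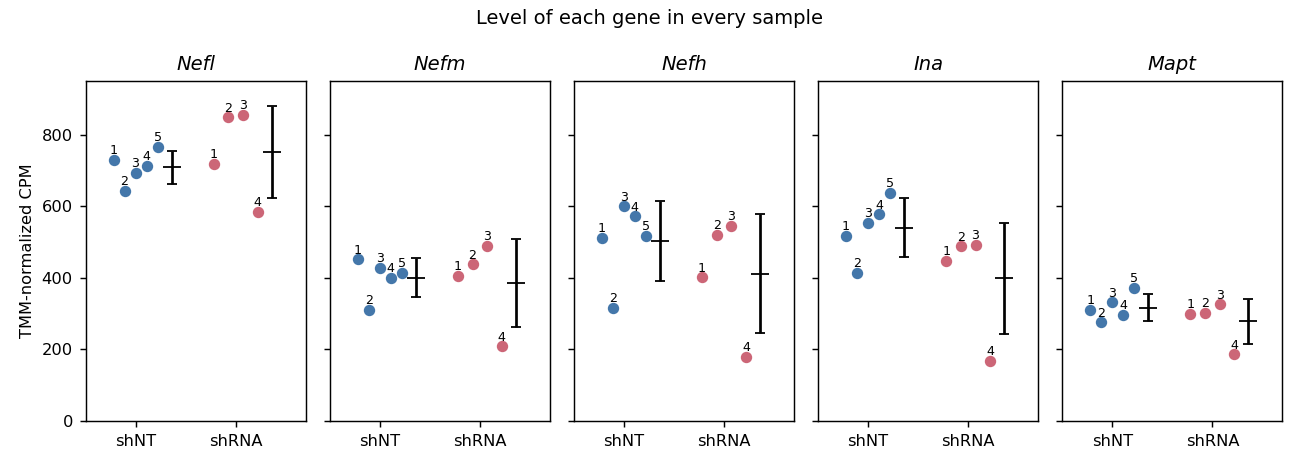
Level of each gene in TMM-normalized CPM (vertical axis, from 0) in the 5 shNT samples (blue) and the 4 shRNA samples (red), with the replicate number above each point and the group mean ± SD beside it in black. The groups overlap in every panel, and in each panel shRNA replicate 4 is the lowest of all 9 samples.

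**Figure D2:**
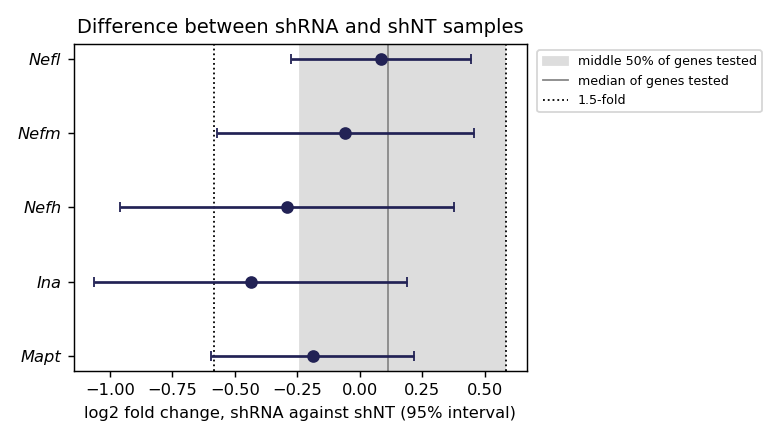
Log2 fold change of each gene (points) with its 95% interval (bars) from edgeR, against the median (grey line) and the middle 50% of all genes tested (grey band) and 1.5-fold in either direction (dotted lines). All 5 points lie below the median of all genes, and every interval spans 0.

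Over the 5 genes, 4 log2 fold changes were below 0 and 1 was above, with a median of -0.19. Over all genes tested, 42.1% were below 0 and the median was 0.11. A correction for exon length, which took the median of all genes to -0.002, gave -0.55 for Mapt, -0.48 for Ina, -0.41 for Nefh, -0.31 for Nefm and 0.02 for Nefl, with adjusted p from 0.142 to 0.958.

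In these TMM-normalized CPM the lowest samples were the same for all 5 genes. Within shNT, replicate 2 was the lowest for each of the 5, and within shRNA, replicate 4 was the lowest and replicate 3 the highest for each. In counts over library size alone, shRNA replicate 4 was not below every shNT sample for Nefl. It held 12946 of 18281719 counts there, against 20201 of 30382875 in shNT replicate 3. By that measure shNT replicate 2 was not the lowest shNT sample for Nefl or Mapt. Likewise shRNA replicate 3 was not the highest shRNA sample for Nefl or Ina. In TMM-normalized CPM and compared with the mean of the other 3 shRNA samples, shRNA replicate 4 held 72.3% of Nefl, 60.3% of Mapt, 46.9% of Nefm, 36.8% of Nefh and 35.4% of Ina. The coefficient of variation over the 4 shRNA samples was 17.1% for Nefl, 22.5% for Mapt, 31.9% for Nefm, 38.8% for Ina and 40.5% for Nefh, beside a median of 20.4% over the 2211 genes that averaged at least 100 CPM. Over the first 3 shRNA replicates it was 4.82% for Mapt, 5.33% for Ina, 9.46% for Nefm, 9.60% for Nefl and 15.7% for Nefh.

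Without shNT replicate 2 and shRNA replicate 4, which were left out together after the data had been seen, the means of Ina were 571 ± 49.9 CPM (SD, n = 4) in shNT and 476 ± 25.4 CPM (n = 3) in shRNA. Its log2 fold change was then -0.26, with an edgeR adjusted p of 0.249. Those of the other genes were 0.16 for Nefl, 0.08 for Nefm, -0.16 for Nefh and -0.08 for Mapt, none of which passed the test.

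To compare the genes with each other, CPM were divided by the exon length in kilobases. In shNT, Nefl was the highest at 210 ± 13.5 CPM per kilobase (SD, n = 5), followed by Ina at 167 ± 25.4, Nefh at 126 ± 27.9, Nefm at 69.3 ± 9.28 and Mapt at 42.1 ± 4.88. Of 15047 genes with a length, 1.75% were higher than Nefl in shNT, 2.41% higher than Ina, 3.32% higher than Nefh, 6.72% higher than Nefm and 11.2% higher than Mapt. The transcripts of the light chain and α-internexin were therefore among the most abundant per length in this RNA.

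In shNT the ranges over samples of Nefl and Ina overlapped, as did those of Ina and Nefh, whereas Nefh and Nefm did not overlap and neither did Nefm and Mapt. Within each of the 9 samples the order of the 5 genes was the same. The shRNA means held that order too, at 222 ± 38.0, 123 ± 47.8, 103 ± 41.7, 66.6 ± 21.2 and 36.9 ± 8.29 CPM per kilobase (SD, n = 4).

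The place of Nefm and Mapt in this order depended on the length used. With the longest annotated transcript in place of all exons, Nefm stood at 109 and Mapt at 60.3 CPM per kilobase in shNT, and Nefh was above Nefm in 6 of the 9 samples. With the transcript that has the longest coding part, Mapt stood at 141 and Nefm at 120 CPM per kilobase, above and below Nefh. Counting only 50-base windows that are unique and belong to 1 gene put Nefl at 340, Ina at 205, Nefh at 138, Nefm at 90.7 and Mapt at 47.0, which kept the order. Nefl was the highest in all 9 samples under each of these lengths.

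The proportions of the subunits were compared as ratios to Nefl within each sample, which do not depend on scaling between libraries. The log2 ratio of Ina to Nefl, per exon length, was -0.43, -0.57, -0.26, -0.24 and -0.21 in shNT replicates 1 to 5 and -0.62, -0.74, -0.73 and -1.73 in shRNA replicates 1 to 4. All 4 shRNA samples lay below all 5 shNT samples, and so did the ratio to Nefl of 10.2% of 14928 genes, while 3.58% lay wholly above. The means were -0.34 ± 0.15 (SD, n = 5) and -0.96 ± 0.52 (n = 4), a difference of -0.61. The exact two-sided permutation p was 0.00794, the smallest the 126 splits can give, and 0.116 after Benjamini-Hochberg adjustment over the ratios of all those genes, so the difference did not pass the correction. Its shRNA mean leans on replicate 4, and without that sample the difference was -0.35.

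The log2 ratio of Mapt to Nefl was -2.39, -2.38, -2.22, -2.42 and -2.20 in shNT replicates 1 to 5 and -2.42, -2.65, -2.55 and -2.81 in shRNA replicates 1 to 4. Replicate 1 lay within the shNT range and the other 3 shRNA samples lay below all shNT samples, which was so of 23.5% of genes. The difference of the means was -0.28, from -2.32 ± 0.10 (SD, n = 5) to -2.61 ± 0.16 (n = 4), with an exact permutation p of 0.0159 and an adjusted p of 0.117 over all genes. The exact permutation p was 0.0571 without shNT replicate 1, 2, 3 or 5 and 0.0536 without shRNA replicate 4. An exact p under 0.05 with a lower ratio was found for 20.9% of all genes, and with a higher ratio for 8.03%, so these values for Ina and Mapt are common ones for a ratio to Nefl.

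The log2 ratio of Nefh to Nefl ran from -1.27 to -0.45 in shNT and from -1.94 to -0.89 in shRNA, with a difference of -0.45 (exact permutation p = 0.127). That of Nefm to Nefl ran from -1.82 to -1.47 in shNT and from -2.26 to -1.58 in shRNA, with a difference of -0.19 (exact permutation p = 0.302). In both, 3 of the 4 shRNA samples lay within the range of the shNT samples. Without shNT replicate 2 the difference for Nefh was -0.57 (exact permutation p = 0.0286). It was -0.21 without shRNA replicate 4 (exact permutation p = 0.304) and -0.33 without both (exact permutation p = 0.0571). With all samples its permutation p, after Benjamini-Hochberg adjustment over the ratios of all genes, was 0.287.

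**Figure D3:**
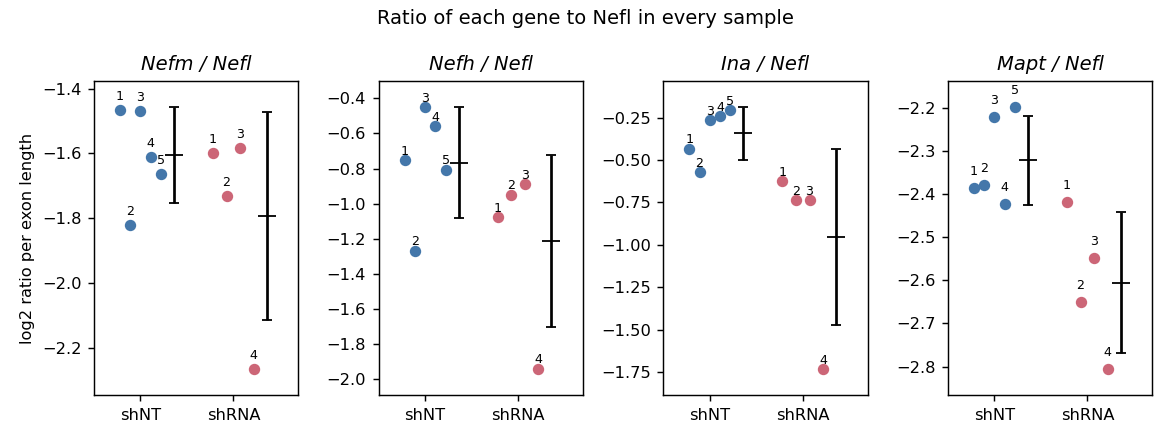
Log2 ratio of the counts per exon length of Nefm, Nefh, Ina and Mapt to those of Nefl (vertical axes, which differ between panels) in each shNT (blue) and shRNA (red) sample, with replicate numbers and the group mean ± SD in black. For Ina the 4 shRNA samples lie below the 5 shNT samples, and shRNA replicate 4 is the lowest of the 9 samples in every panel.

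In TMM-normalized CPM, the lowest samples for these genes were also samples with many reads outside exons. They also had the highest TMM factors, 1.21 in shRNA replicate 4 and 1.11 in shNT replicate 2, and a higher factor lowers CPM. How far the relations below depend on that scaling was not tested. Across the 9 samples, the log2 level of Nefh fell with the share of reads outside exons with a Pearson r of -0.96 (exact permutation p = 0.0013) and a Spearman rho of -0.83 (exact permutation p = 0.00827). For Ina, r was -0.91 (exact permutation p = 6.75e-04) and rho was -0.87 (exact permutation p = 0.00451). Leaving out the 2 samples farthest from the median share, shRNA replicates 4 and 1, left r at -0.96 for Nefh and -0.82 for Ina. Within the 6 samples named YTa31, the larger of the 2 name sets in the labels, r was -0.89 and -0.92. The other set holds 3 samples, shNT replicates 4 and 5 and shRNA replicate 4, too few for a value.

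For the other 3 genes r was closer to 0, and more so without the extreme samples. For Mapt, r was -0.85 (exact permutation p = 0.00805) and rho was -0.62 (exact permutation p = 0.0857), and r was -0.56 without the 2 samples. For Nefm, r was -0.86 (exact permutation p = 0.0144) and rho was -0.45 (exact permutation p = 0.230), and r was -0.73 without them. For Nefl, r was -0.67 (exact permutation p = 0.0554), rho was -0.20 (exact permutation p = 0.613), and r was -0.31 without them. In counts over library size alone, Nefl in shRNA replicate 4 was not below every shNT sample, so its fall depends on the normalization. These 5 relations were computed and their p are not adjusted. An r as low was found in 0.717% of all genes for Nefh, 4.20% for Ina, 7.70% for Nefm, 8.26% for Mapt and 20.6% for Nefl.

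The share of reads outside exons had a median of 16.2% in shRNA samples and 10.97% in shNT samples, so it moves with the groups. With that share as a covariate in edgeR, the log2 fold changes were 0.29 for Nefm, 0.26 for Nefl, 0.22 for Nefh, 0.03 for Mapt and -0.04 for Ina. Those of Nefm, Nefh and Mapt thereby changed sign, and none of the 5 passed the test. Within the YTa31 samples, 3 of each group, they were 0.20, 0.13, 0.01, -0.09 and -0.02 for Nefl, Nefm, Nefh, Ina and Mapt, and none passed. This comparison also leaves out shRNA replicate 4, the only shRNA sample of the other name set. Within shRNA, that sample and the name set cannot be told apart.

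**Figure D4:**
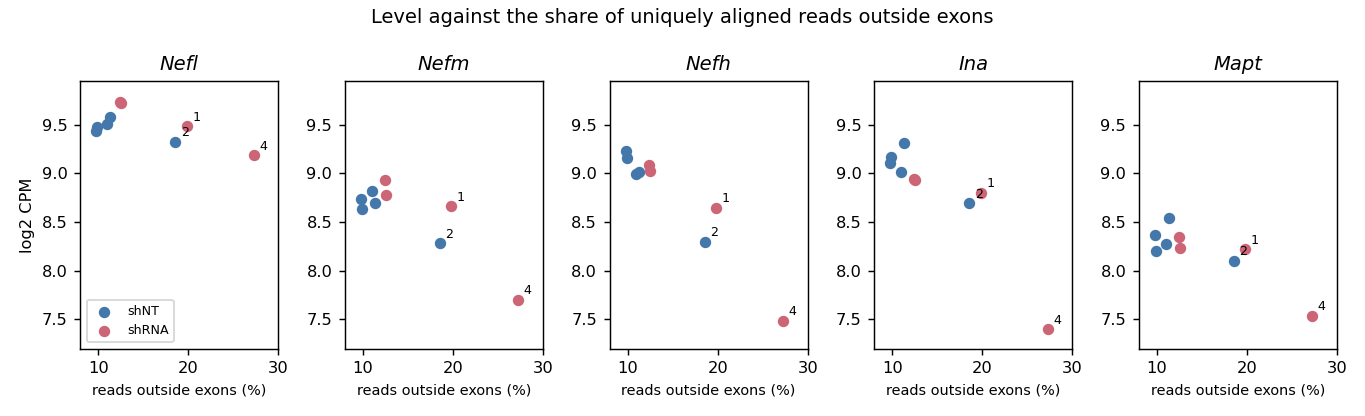
Log2 TMM-normalized CPM of each gene (vertical axis, the same in all panels) against the percentage of uniquely aligned reads outside annotated exons (horizontal axis) in 5 shNT (blue) and 4 shRNA (red) samples, with replicate numbers on samples above 15%. Nefh and Ina decline along the axis with r of -0.96 and -0.91, while Nefl declines less, with r of -0.67.

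The levels of 14 PV interneuron markers, averaged as log2 relative to the shNT mean, ran from -0.37 to 0.17 in shNT, with replicate 2 the lowest, and from -1.17 to -0.07 in shRNA, with replicate 4 the lowest. Their summed level ran from 5181 to 8416 CPM in shNT and from 3045 to 7305 CPM in shRNA. All 14 log2 fold changes were below 0, with a median of -0.35, and none passed the test. The markers did not move together in shNT replicate 2. Pvalb was at 1106 CPM there and at 678, 743, 1089 and 1375 CPM in the other shNT samples. Gad1, at 1722 CPM, was lower there than in any other shNT sample. In shRNA replicate 4, Pvalb was at 310 CPM, below every other sample. Other interneuron markers (7 genes tested, not Lamp5) summed to 547 to 920 CPM in shNT and 314 to 702 CPM in shRNA. The lowest sum, 314 CPM, was that of shRNA replicate 4. On the averaged log2 scale that sample was at -0.24, within the shNT range of -0.51 to 0.32.

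Astrocyte markers (9 genes) reached 2.58 on this log2 scale in shRNA replicate 4. They were at 0.27 to 0.64 in the first 3 shRNA replicates and at -0.17 to 0.38 in shNT. Their summed level was 5008 CPM in that sample and at most 1358 CPM in any shNT sample. Oligodendrocyte markers (8 genes) summed to 775 to 2406 CPM in shNT and 1470 to 3059 CPM in shRNA. Pyramidal neuron markers (8 genes) summed to 274 to 553 CPM in shNT and 666 to 842 CPM in shRNA. Of the 8, 1 was called higher, as were 1.74% of all genes. Endothelial markers (7 genes) were at 2.25 in shRNA replicate 4, -1.51 to -0.47 in the other shRNA samples and -0.77 to 0.72 in shNT. In the same order, granule cell markers (4 genes) were at 1.35, 0.52 to 1.09 and -0.81 to 0.73. Microglia markers (7 genes) were at 0.29, 0.25 to 0.44 and -0.58 to 0.44. Nuclear-retained noncoding RNAs (5 genes) were at 2.52 in shRNA replicate 4, 0.18 to 1.80 in the other shRNA samples, 1.71 in shNT replicate 2 and -0.87 to -0.04 in the other shNT samples. The value of 1.80 was that of shRNA replicate 1. For each of the 5 genes that sample lay above shRNA replicate 4 and below shRNA replicates 2 and 3. Astrocyte markers were at -0.15 in shNT replicate 2, within the range of the other shNT samples. No tested marker of any of the lists averaged under 1 CPM, and the part of these cells and RNAs in the values of the neurofilament genes and Mapt was not tested.

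By likeness of pattern, the protein-coding genes averaging at least 10 CPM with the highest Pearson r to each gene were picked over the 9 samples. For Nefl they were C530008M17Rik (0.91), Map2k1 (0.91) and Ttc3 (0.90), and for Nefm they were Eif4b (0.98), Sept8 (0.97) and 6430598A04Rik (0.97). For Nefh they were Farsb (0.997), Exog (0.996) and Trmt2b (0.995), and for Ina they were Mtrf1 (0.998), Eif3h (0.996) and 1500003O03Rik (0.995). For Mapt they were Bin1, Eef2 and Sms, each at 0.98. Among the 5 genes, r ran from 0.67 for Nefl with Ina to 0.96 for Ina with Mapt. The points share their libraries, and shRNA replicate 4 is far from the others for each gene, so these values are a description.

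Genes that act with neurofilaments and tau were taken as 5 lists, and no member of any list passed the test. Of the other intermediate filament genes, 9 of 10 were tested (not Prph, which encodes peripherin), 8 with log2 fold changes above 0 and 1 below, with a median of 0.19. Gfap, the intermediate filament of astrocytes, had the highest, 1.34 (SE 0.50, edgeR adjusted p = 0.0962), and it was at 1058 CPM in shRNA replicate 4 and 181 to 235 CPM in the other shRNA samples. Lmna, which encodes nuclear lamins, was the lowest of those averaging at least 10 CPM, at 0.05.

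Genes of filament linkers, transport and turnover (12) had 11 log2 fold changes above 0, with a median of 0.30. Myo5a, which encodes the myosin Va motor, was at 406 ± 186 CPM (SD, n = 5) in shNT and 1392 ± 765 CPM (n = 4) in shRNA, a log2 fold change of 1.78 (edgeR adjusted p = 0.058). Its shRNA samples did not lie all above the shNT samples, since replicate 4 was at 371 CPM. Stub1, which encodes the ubiquitin ligase CHIP that acts on tau, was the lowest of the list at -0.48 (edgeR adjusted p = 0.0797).

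Other microtubule-associated protein genes (21) split evenly, with 10 log2 fold changes above 0 and 11 below and a median of -0.01. Mtap7, which encodes the microtubule stabilizer Map7, had the highest at 1.63 (SE 0.41, edgeR adjusted p = 0.058), with every shRNA sample, at 68.0 to 248 CPM, above every shNT sample, at 23.7 to 61.2 CPM. Stmn3, of the stathmin family that binds free tubulin, had the lowest at -0.71 (edgeR adjusted p = 0.12). The groups separated upward for 2 genes of this list, Mtap7 and Mtap2. They separated downward for 3, Mtap7d2, Stmn2 and Stmn4, whose shRNA values were all under the lowest shNT value. The log2 fold changes of these 3 were -0.49, -0.49 and -0.29. Mtap2, which encodes the dendritic protein Map2 of the same family as tau, was chosen after its values were seen. It was at 369 ± 117 CPM (SD, n = 5) in shNT and 760 ± 138 CPM (n = 4) in shRNA, with every shRNA sample above every shNT sample, as in 8.97% of all genes, and an edgeR adjusted p of 0.0503.

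Tubulin genes, the subunits of the microtubules that tau binds, were tested for 11 of 12, with Tuba1c left out by the filter. Of these 9 had log2 fold changes below 0, and the median was -0.27. Tubb3, the neuronal tubulin, was the lowest at -0.40 (edgeR adjusted p = 0.361), and Tubb2b the highest at 0.57 (edgeR adjusted p = 0.0651). Genes of tau kinases and phosphatases (22) had 9 log2 fold changes above 0 and a median of -0.08. Camk2a, a kinase abundant in pyramidal neurons, was at 0.76 (edgeR adjusted p = 0.0924), and Cdk5, which phosphorylates tau and neurofilament tails, was at -0.40 (edgeR adjusted p = 0.103).

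**Figure D5:**
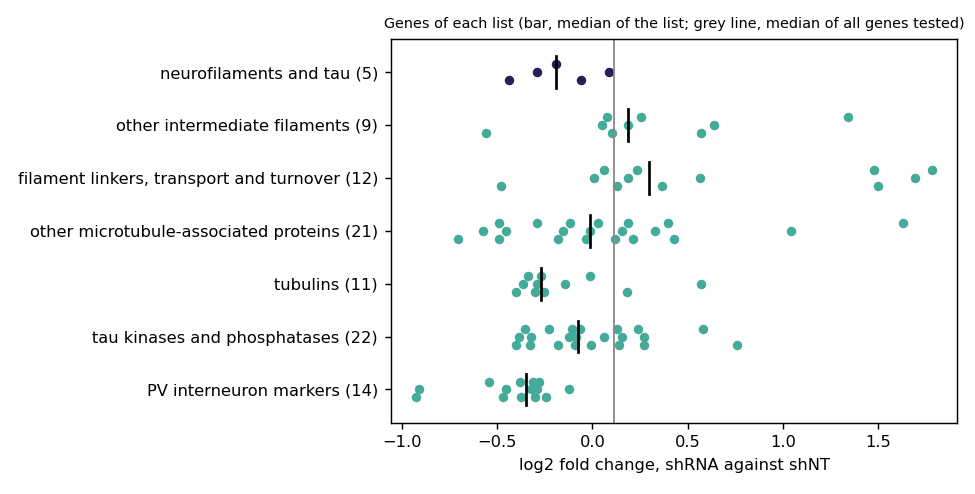
Log2 fold change (horizontal axis) of every tested gene of each list (points, with the number of genes in brackets), with the median of the list as a black bar and the median of all genes as a grey line. The medians of the neurofilament and tau genes (-0.19), the tubulins (-0.27) and the PV interneuron markers (-0.35) lie below the median of all genes (0.11), and those of the other intermediate filaments (0.19) and the filament linkers (0.30) lie above it.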

How the data were processed

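Per the paper's methods and the labels, RNA was sequenced as 50-base reads, and the authors aligned reads with STAR to mm9 and counted them per gene with HTSeq 0.6.0 without regard to strand. The authors deposited raw counts for each sample, with reads outside exons, ambiguous reads and multiple alignments as separate entries that were kept out of library sizes. After TMM normalization, edgeR 4.0.16 in R 4.3.3 fitted the quasi-likelihood model with group as the only term (5 shNT and 4 shRNA samples). A gene entered the fit if any sample reached 1 CPM by library size alone (15069 genes). Genes were called at a Benjamini-Hochberg FDR under 0.05 and at least 1.5-fold. For log2 levels the prior count was 2. The fit was tested on simulated data.

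Positions, exon lengths and sequences came from the GENCODE annotation of the same build, which named 37205 of the identifiers. Single values were compared by exact two-sided permutation. No 2 samples of the same group agreed within sampling noise. Each sample pools mice, and p-values measure the spread between pools.

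The 5 genes and all lists were chosen with earlier results of these data known. Named genes were the 5, Ablim3, Pvalb, the 3 genes most like each of the 5, and, of each related list without a called gene, those with the highest and lowest log2 fold change among genes averaging at least 10 CPM. Alternatives covered other tests (likelihood ratio, exact, DESeq2 1.42.0, limma 3.58.1 voom), normalizations, filters, covariates and lengths, and leaving out samples.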

Additional observations from a re-analysis of the deposited data

Results flagged for a closer look

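Of 24 groups of 4 or 5 values examined, 3 held a sample far from the others by Dixon's criterion, where about 1.2 would be found by chance. Ina was at 169 CPM in shRNA replicate 4 and at 447 to 493 CPM in the other 3 shRNA samples. The log2 ratio of Ina to Nefl was -1.73 in the same sample and -0.74 to -0.62 in the other 3. The share of uniquely aligned reads outside exons was 18.6% in shNT replicate 2 and 9.76% to 11.3% in the other 4 shNT samples.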

How the results depend on the processing

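None of the 5 genes passed the test under any of the 25 alternatives, and the log2 fold change of Ina kept its direction in all of them. The sign turned for Nefm with voom (0.18), within the YTa31 samples (0.13), with a covariate for reads outside exons (0.29), without shRNA replicate 4 (0.14) and without both samples that stood apart (0.079). It turned for Nefh within the YTa31 samples (0.014) and with the covariate (0.22), for Mapt with voom (3.8e-05) and the covariate (0.030), and for Nefl without shRNA replicate 3 (-0.056, against 0.17 without shRNA replicate 4). The ratio of Ina to Nefl differed by -0.27 within the YTa31 samples (exact permutation p = 0.1, the smallest 3 against 3 samples can give). That of Mapt differed there by -0.21 (exact permutation p = 0.1), and by -0.23 without both samples that stood apart (exact permutation p = 0.0857). With 1 sample left out, the difference ran from -0.72 to -0.35 for Ina, -0.35 to -0.22 for Mapt, -0.57 to -0.21 for Nefh and -0.26 to -0.03 for Nefm.

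Counts of called genes moved with the method. Genes called higher and lower were 1688 and 542 by the likelihood ratio test, 1659 and 534 by the exact test, 1532 and 833 by DESeq2, 2301 and 618 by voom, and 501 and 14 with no filter. Scaling to library size only, upper quartile normalization, the YTa31 samples alone, the covariate and the exon length correction each gave 0 and 0. DESeq2 size factors and the term for name sets each gave 1 lower, the filter on 4 samples gave 8 lower, and leaving out both samples gave 678 higher. With 1 sample left out, 0 to 1007 were higher (0 when shRNA replicate 1 or 3 or any of shNT replicates 3 to 5 was dropped, 1007 when shNT replicate 1 was) and 0 to 410 lower. Replicate numbers 1 to 4 occur in both groups, but same-numbered samples did not deviate together (r of -0.27, -0.64, 0.49 and -0.18). The replicate block gave 34 higher and 0 lower and called none of the 5 genes. The causes were not tested. With 4 and 5 samples, the intervals of the 5 genes set the size of change that could have been missed.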
